A study of Astyanax mexicanus with 12 samples.

Results

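The genes described here are 200 genes whose read level in the larval liver was higher in Tinaja cavefish than in surface fish at 2 ages and moved little with age in either morph. They come from 17540 genes with enough reads to be tested, out of 27420 gene identifiers in the count table. The species is the Mexican tetra, Astyanax mexicanus, and the groups were Tinaja at 5 days post-fertilization (dpf), Tinaja at 7 dpf, surface fish at 5 dpf and surface fish at 7 dpf. Each group had 3 libraries, and each library held polyadenylated RNA from the pooled livers of 40 larvae. No allele or agent was introduced in any group. Embryos of several parent tanks were mixed, and the larvae sampled at 7 dpf had been fasted whereas the study calls the 5 dpf state fed, so age and feeding cannot be told apart. Because a library is a pool, the spread between libraries is one between pools and may in part be technical.

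The members were chosen by their values in these same 12 libraries. Levels were log2 CPM (reads of a gene per 1e6 gene reads of its library, with the libraries scaled to each other), with a prior count of 2 that damps differences at low counts. A gene was kept if its mean log2 CPM was under 10, if its group means differed by less than 0.8 between the ages in each morph, and if all 6 Tinaja values lay above all 6 surface values. The mean log2 CPM also had to be at least 1 higher in Tinaja at 5 dpf and at 7 dpf. These conditions left 269 genes, and the 200 with the largest values of the smaller of both morph differences were taken and are numbered by it. The morph differences, the age differences and the separation of the libraries were therefore selected on, and they are given below as a description without a test.

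Astyanax mexicanus has river populations with eyes and cave populations, among them Tinaja, that have lost eyes and pigment and live where food is scarce. The liver stores and releases fuel, makes most plasma proteins and handles the fat that arrives from yolk, food or fat tissue. Genes of the fasting response change with feeding state, and a gene can be higher in one morph and also respond to fasting. The rule limited the members' change with age, so whether they belong to the fasting response cannot be read here.

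None of the identifiers matched a gene name in the reference table used here (0 of 27420), so members are given by rank, apart from the first pair in the ranking, which are given by identifier. For the same reason, pathway lists were not analysed here and the label liver was not checked against markers of hepatocytes or other cells. Gene reads ran from 10.6 to 23.6 M per library. Unaligned reads made up 4.57% to 7.74% in Tinaja libraries and 3.90% to 9.63% in surface libraries, and reads at several places made up 6.34% to 10.2% in Tinaja libraries and 6.19% to 10.7% in surface libraries. Their part in the results was not tested. Over the members, Tinaja 5 dpf replicate 2 and Tinaja 7 dpf replicate 1 lay lowest within their groups. In them 30.5% and 33% of the members were above the group mean, against 52.4% and 47.3% of all genes. Tinaja 7 dpf replicate 1 was still the highest Tinaja library for 36 members (18%, against 24.7% of all genes).

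The 200 genes were higher in Tinaja, by a median of 2.23 on the log2 CPM scale at 5 dpf and 2.50 at 7 dpf. Over all genes tested the medians were -0.00 and -0.02. With the reads of a group pooled and divided by its scaled library sizes, the median ratio of Tinaja to surface was 6.86-fold at 5 dpf and 7.86-fold at 7 dpf, where a morph without a read enters as a lower bound from 3 reads. The difference was at least 2 on the log2 scale at both ages for 107 members, at least 3 for 48 and at least 5 for 14. In a bulk sample, fewer cells of a type and less RNA per cell cannot be told apart.

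**Figure D1:**
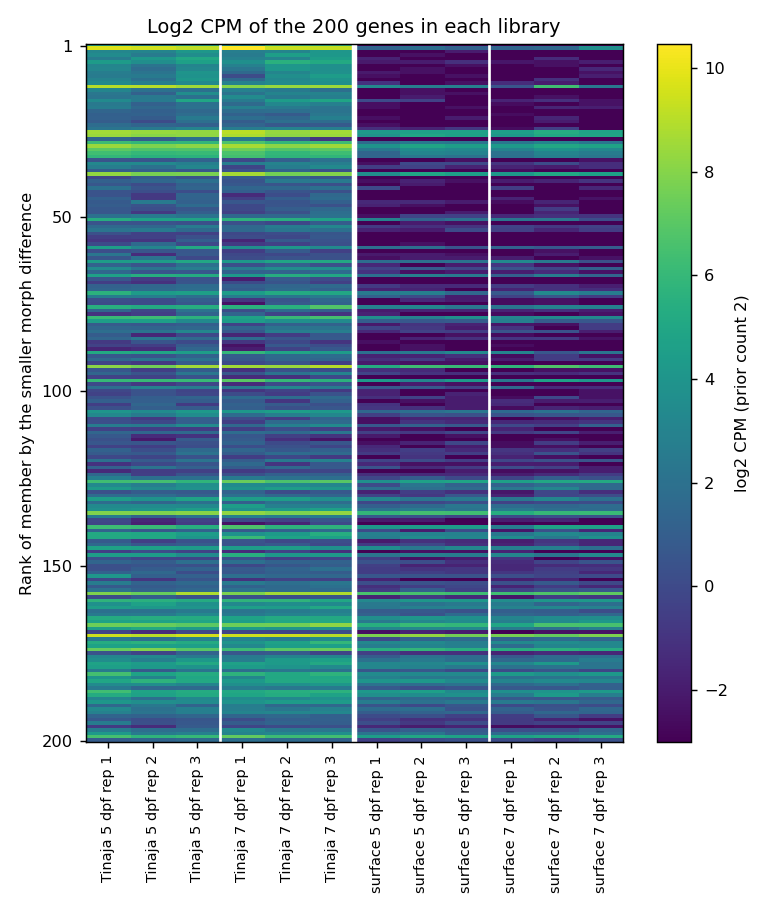
Log2 CPM (colour, prior count 2) of the 200 genes (rows, in order of rank) in the 6 Tinaja libraries and then the 6 surface libraries (columns, ages in order). Every row is brighter in all 6 Tinaja libraries, which the choice of genes fixed, while the level differs widely from row to row.

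ENSAMXG00000032086, the first in the ranking, was read only in Tinaja. It had 28.5, 14.8 and 34.2 CPM in Tinaja at 5 dpf and 15.5, 62.3 and 51.3 CPM at 7 dpf, against 0 reads in all 6 surface libraries. The lowest Tinaja libraries were replicate 2 at 5 dpf and replicate 1 at 7 dpf, and both stood well clear of the surface libraries. In reads this was 1378 in Tinaja at 5 dpf and 1822 at 7 dpf, so the level was at least 407-fold higher in Tinaja at 5 dpf and at least 712-fold higher at 7 dpf, taking 3 reads over each surface group as the floor. These bounds cover counting error only.

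ENSAMXG00000042792, the second in the ranking, was abundant in Tinaja and scarce in surface fish. Its level was 851, 720 and 566 CPM in Tinaja at 5 dpf, against 2.39, 3.57 and 2.19 CPM in surface fish at that age. At 7 dpf it was 1413, 655 and 601 CPM in Tinaja, against 2.48, 2.78 and 12.5 CPM in surface fish. At 5 dpf Tinaja averaged 712 ± 143 CPM and surface fish 2.72 ± 0.748 CPM, and at 7 dpf Tinaja averaged 890 ± 454 CPM and surface fish 5.92 ± 5.70 CPM (SD, n = 3 each). The spread at 7 dpf came from a high Tinaja library, replicate 1, and a high surface library, replicate 3. The ratio of pooled reads, scaled in this way, was 266-fold at 5 dpf and 171-fold at 7 dpf. Surface 7 dpf replicate 3 held 167 of the 390 surface reads of both ages, against 53 and 42 in the other surface libraries at 7 dpf. Without it, the ratio at 7 dpf was 345-fold.

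The member ranked 13, singled out after its values were seen, was also abundant in Tinaja but uneven in surface fish. It had 525, 523 and 372 CPM in Tinaja at 5 dpf, against 10.0, 6.62 and 7.15 CPM in surface fish. At 7 dpf it had 257, 340 and 353 CPM in Tinaja, against 1.31, 80.0 and 5.16 CPM in surface fish. Surface 7 dpf replicate 2 alone held 1211 of its 1685 surface reads of both ages, against 28 and 69 in the other surface libraries at 7 dpf. The ratio of pooled reads, scaled in this way, was 59.8-fold at 5 dpf and 12-fold at 7 dpf, and 113-fold at 7 dpf without that library.

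**Figure D2:**
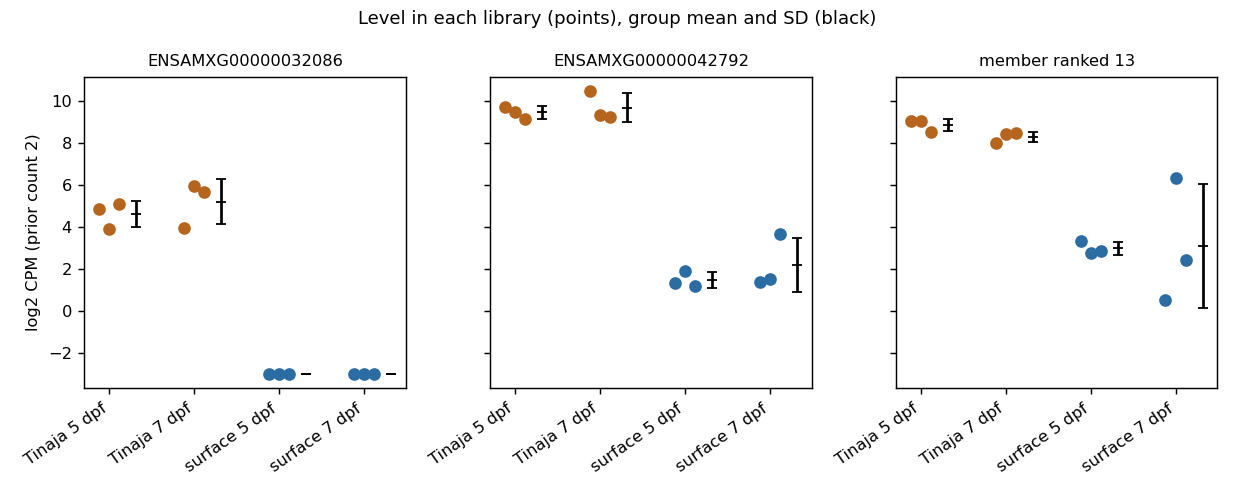
Log2 CPM (prior count 2) in each library for ENSAMXG00000032086, ENSAMXG00000042792 and the member ranked 13, with Tinaja in orange, surface fish in blue, and group means with SD in black (n = 3 each). Surface points of the first gene all lie at the value that 0 reads give, and 1 surface library at 7 dpf lies far above the others for the member ranked 13.

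Members ranked 3 to 5 resembled the first. The member ranked 3 had 6.70 to 17.4 CPM over the 6 Tinaja libraries, against reads in a single surface library at 0.129 CPM. For the member ranked 4 the values were 5.95 to 23.5 CPM in Tinaja, against a single surface library at 0.0650 CPM. The member ranked 5 ran from 6.05 to 33.0 CPM in Tinaja, against 0.184 and 0.264 CPM in a pair of surface libraries and no read in the other 4.

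By their reads in surface fish, a grouping made after the values were seen, the members fell into 3 classes. In the first class were 37 members with at most 3 reads over all 6 surface libraries, 13 of them with none. They had 12184 reads in Tinaja in sum and 43 in surface fish. Their Tinaja level was low, with a median of 1.26 CPM and a range of 0.42 to 34.4 CPM, and the surface level was at most 0.033 CPM. Of the 24 with any surface read, 13 had them all in a single library. Genes with so few surface reads made up 0.422% of all genes tested (74 of 17540), and genes with so few Tinaja reads made up 0.336% (59).

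The second class held 86 members with 4 to 100 surface reads. Their median level was 2.14 CPM in Tinaja, against 0.228 CPM in surface fish, and the median morph difference was 2.31 at 5 dpf and 2.62 at 7 dpf on the log2 CPM scale. This class had the largest spread within groups, with a median SD of 0.67 in log2 CPM against 0.57 in the first class and 0.50 in the third. Surface libraries without a read all take the same log2 CPM, which lowers the SD of the first class.

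The third class held 77 members with over 100 surface reads, which were clearly read in both morphs. Their median level was 22.5 CPM in Tinaja, against 5.57 CPM in surface fish, and their median morph difference was smaller, at 1.72 at 5 dpf and 1.91 at 7 dpf. It was 3.34 and 3.37 in the first class, at the same ages. Together the first and second class held 123 members with at most 100 surface reads, or 61.5% of the members, against 13% of all genes tested. A gene read in Tinaja alone could be tested, and the choice favoured low surface levels, so nothing is read from this share. The files give no gene lengths, so these levels are shares of reads and do not rank transcripts of different genes.

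**Figure D3:**
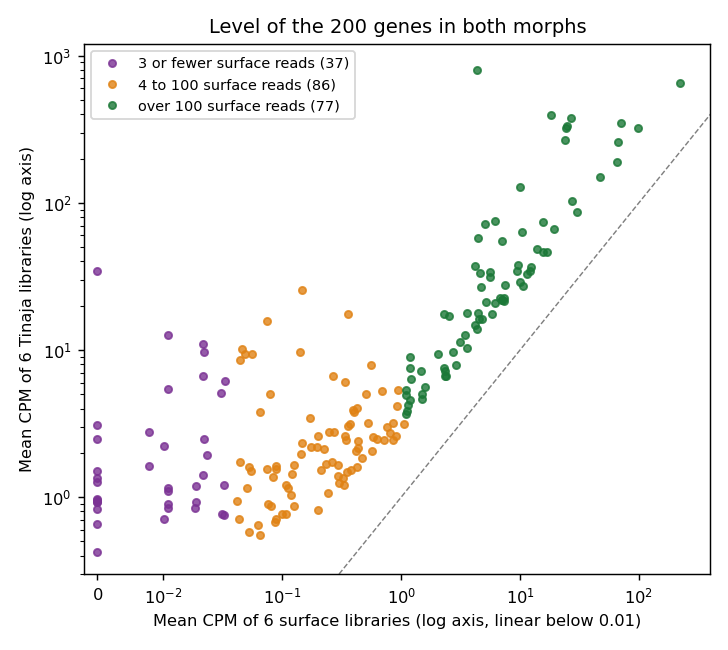
Mean CPM of each member over 6 Tinaja libraries (vertical, log axis) against its mean over 6 surface libraries (horizontal, log axis, linear below 0.01), coloured by surface reads, with a dashed line of equal level. All 200 points lie above the line, which the choice of genes fixed. The 37 genes with 3 or fewer surface reads stay at or below 34.4 CPM in Tinaja.

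The ranking, which by its rule favours low surface levels, was led by genes with few surface reads. Among the first 20 members, 9 belonged to the first class, 9 to the second and 2 to the third. Among ranks beyond 100 the split was 3, 43 and 54. For the first 20 the median level was 9.66 CPM in Tinaja, against 0.045 CPM in surface fish. For ranks beyond 100 it was 4.61 CPM in Tinaja, against 1.13 CPM in surface fish.

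A small set carried most of the reads. The 14 members with at least 100 CPM in Tinaja had a median of 321 CPM there and 27.0 CPM in surface fish, and held 70.0% of the members' reads in Tinaja and 64.1% in surface fish. Only 2 of them were among the first 20 ranks, and 6 ranked beyond 100. The member ranked 170 was the most abundant in surface fish, at 523 to 758 CPM over the 6 Tinaja libraries against 155 to 314 CPM over the 6 surface libraries.

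As a share of all gene reads, the members took 0.641%, 0.493% and 0.773% in Tinaja at 5 dpf, against 0.153%, 0.160% and 0.134% in surface fish. At 7 dpf they took 0.524%, 0.673% and 0.751% in Tinaja, against 0.0831%, 0.107% and 0.0880% in surface fish. Every Tinaja library was above every surface library, as the choice of genes favoured. Without the 3 members with the most reads, the share was 0.338% to 0.593% in Tinaja and 0.0640% to 0.120% in surface fish. All 200 members were read in every Tinaja library, which the choice required, while 144 to 156 of them were read in a given surface library.

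The distance between the lowest Tinaja and the highest surface library varied widely. Its median over the members was 0.80 on the log2 CPM scale, from 0.02 to 6.90, and it exceeded 1 in 83 members and was under 0.2 in 26. The median was 3.84 for the first 20 ranks and 0.44 for ranks beyond 100. Genes without any overlap, with Tinaja above, made up 3.58% of all genes tested (628), a set that includes all 200 members by choice. The rule turned round, for genes lower in Tinaja, found 127 genes where 269 met it as given. The count of 269 fell when library totals set the scale, and the turned-round rule was not applied there. Nothing is therefore read from the difference of these counts.

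In the quasi-likelihood test of edgeR with Benjamini-Hochberg adjustment over all genes, 190 members passed an adjusted p under 0.1 as higher in Tinaja at 5 dpf, where 8.77% of all genes did. At 7 dpf 192 passed, where 10.6% of all genes did. At both ages 185 passed, where 3.79% of all genes did. These calls use the contrasts that chose the members, and nothing is read from them beyond which members the test did not call. The 15 that missed at 1 or both ages included 14 of the second class and 1 of the third. They had 57 to 518 reads in Tinaja, with a median of 135, and the distance between the lowest Tinaja and the highest surface library had a median of 0.35 on the log2 CPM scale.

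**Figure D4:**
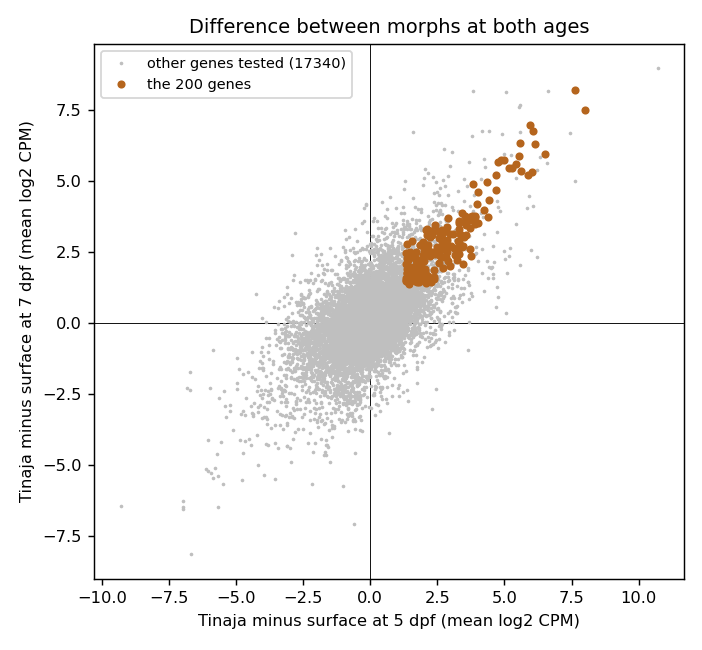
Difference in mean log2 CPM, Tinaja minus surface, at 5 dpf (horizontal) and 7 dpf (vertical) for the 200 genes (orange) and the other 17340 genes tested (grey). The 200 genes begin at 1.33 at 5 dpf and 1.38 at 7 dpf, and reach 7.98 at 5 dpf and 8.21 at 7 dpf.

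The end of the ranking was gradual. The last pair of members had a smaller morph difference of 1.33 each, and the genes in places 201 and 202, just outside, had 1.33 and 1.32. The 69 genes that met every condition but were not taken spanned 1.01 to 1.33.

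With age the members moved little, as the rule required. Their median log2 CPM change, 7 minus 5 dpf, was 0.09 in Tinaja and -0.06 in surface fish, against 0.01 and -0.06 over all genes. With library totals in place of the trimmed-mean factors these medians of the members were -0.03 in Tinaja and -0.51 in surface fish, against -0.09 and -0.75 over all genes, so the sign in Tinaja depended on the scale. The morph difference was larger at 7 than at 5 dpf in 129 of the 200 members, against 8764 of the 17540 genes, with a median gain of 0.16 and a range of -1.38 to 1.41. With library totals the median morph difference went from 2.03 to 2.58 in the members and from -0.41 to 0.16 over all genes. On that scale the rise in the members was close to that of all genes.

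The limits on age in the rule kept calls with age low among the members by choice, so the next counts are a description and nothing is read from them. No member passed edgeR's test for age in Tinaja, where 6.97% of all genes did. An unadjusted p under 0.05 in that test was found for 3 members, against 3312 of all genes. DESeq2 and limma-voom called none either, where they called 1992 and 1044 of all genes. In surface fish 2 members passed, where 28.4% of all genes did (4989). Of the members, 21 passed with library totals, 0 with limma-voom and 0 without a filter on low counts. Over all genes, 8128, 4780 and 4299 passed under these settings. No member passed the edgeR test for a difference of the age effects between the morphs, where 0.0456% of all genes did (8). Its unadjusted p was under 0.05 for 5 members, against 2769 of all genes. DESeq2 and limma-voom again called none of the members, while over all genes DESeq2 called 835 and limma-voom 7. The count over all genes by edgeR became 555 when replicate 3 of Tinaja at 5 dpf was dropped, and 1484 when replicate 1 of Tinaja at 7 dpf was.

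The 2 members called with age in surface fish were ranked 92 and 179, and both were lower at 7 dpf. The member ranked 92 had 2, 1 and 1 reads in surface fish at 5 dpf and none at 7 dpf, against 14, 8 and 28 reads in Tinaja at 5 dpf and 13, 19 and 8 at 7 dpf. Rank 179 had 24.2, 19.6 and 14.9 CPM in Tinaja at 5 dpf, against 8.99, 7.73 and 5.21 CPM in the surface libraries. At 7 dpf it had 20.6, 15.4 and 10.6 CPM in Tinaja, against 4.12, 4.30 and 4.49 CPM in the surface libraries. This count of 2 also moved with single libraries. Dropping replicate 1 or 2 of surface fish at 5 dpf, or replicate 2 of Tinaja at 7 dpf, left 0 calls. Over all genes these settings called 3062, 3386 and 4606. Dropping Tinaja 5 dpf replicate 1 or replicate 3 of surface fish at that age left 1 call, where 4454 and 3834 of all genes were called. Dropping Tinaja 7 dpf replicate 1 or replicate 2 of surface fish at that age gave 4, where 5898 and 3396 of all genes were called.

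The prior count hides part of the age change of rarely read genes. By the fitted log2 fold changes of edgeR, which damp less, 3 members changed at least 2-fold with age in Tinaja and 45 in surface fish. Of these 45, 18 belonged to the first class, 24 to the second and 3 to the third. In surface fish, 42 of the 45 thus rested on at most 100 reads. Such changes were not counted over all genes, so these counts cannot be called high or low.

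As a description, the choice was also read in libraries it had not used. With each library left out in turn, the rule was applied to the other 11, and the 200 genes so chosen were read in the library left out. In the left-out Tinaja libraries, 95%, 90.5% and 96% of these genes at 5 dpf lay above all 6 surface libraries, and at 7 dpf 77%, 99% and 95.5% did. Over all genes tested, 18.4% to 22.7% did. In the left-out surface libraries, 89.5%, 94% and 97.5% at 5 dpf and 96%, 87% and 95.5% at 7 dpf lay below all 6 Tinaja libraries, against 18.7% to 24.6% of all genes. The chosen genes were still conditioned on the values of the other morph. Their remaining libraries of the same morph also had to lie beyond all 6 of these values. Shares above those of all genes were thus favoured by the choice, and these shares carry no p.

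**Figure D5:**
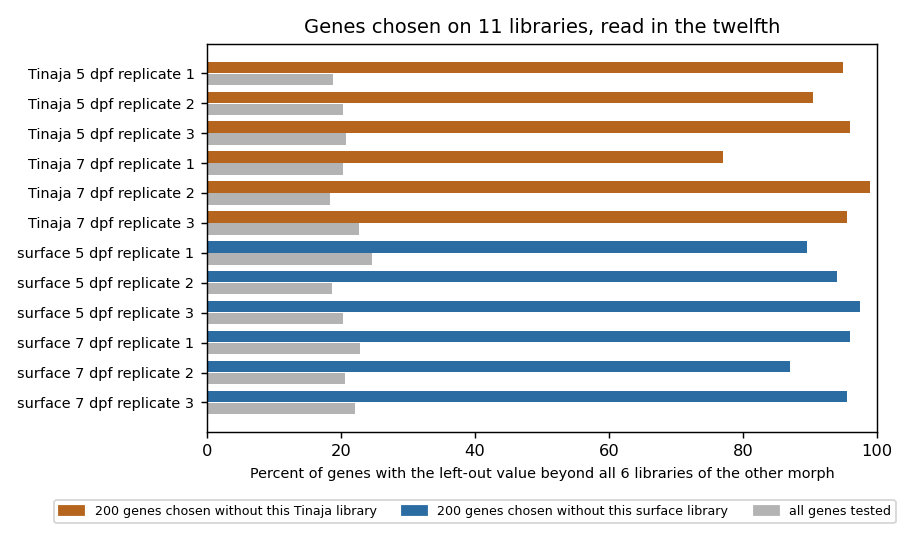
Percent of the 200 genes chosen on 11 libraries whose value in the twelfth lay beyond all 6 libraries of the other morph, for left-out Tinaja (orange) and surface (blue) libraries, with the percent over all genes tested in grey. The share is lowest for Tinaja 7 dpf replicate 1, at 77%, and highest for Tinaja 7 dpf replicate 2, at 99%. The choice on the other 11 libraries favours shares above those in grey.

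Tinaja 7 dpf replicate 1 gave the lowest of these shares. The genes chosen without it differed from surface fish by a median of 1.84 in the left-out library, against 2.79 in the libraries that chose them. It was the lowest Tinaja library for 58 members (29%, against 26.4% of all genes), and Tinaja 5 dpf replicate 2 was the lowest for 70 (35%, against 20.9%). Among surface libraries, 7 dpf replicate 2 was the highest for 53 of the 187 members with any surface read (28.3%, against 17.7% of all genes). Leaving out Tinaja 7 dpf replicate 1 gave a list that held 138 of the 200 members, the fewest of all libraries, and Tinaja 7 dpf replicate 2 gave the most, 171.

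Technical measures also differed between libraries. Reads outside genes made up 22.2%, 19.9% and 30.0% in Tinaja at 5 dpf, against 34.3%, 30.5% and 27.2% in surface fish. At 7 dpf they made up 23.1% to 27.4% in Tinaja, against 21% to 22.7% in surface fish. The part of these reads in the morph differences was not tested. With this share as a covariate, 136 members were called higher at 5 dpf and 160 at 7 dpf by edgeR, at an adjusted p under 0.1. Over all genes, 743 and 1159 were called higher with the covariate, against 1538 and 1858 without it.

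The scale of the libraries affected how many members met the rule. With library totals in place of the trimmed-mean factors, the median difference of all genes between the morphs was -0.41 at 5 dpf and 0.16 at 7 dpf. Their median change with age in surface fish was -0.75. On that scale all 200 members were still higher in Tinaja at both ages, with medians of 2.03 at 5 dpf and 2.58 at 7 dpf. By choice the members began at differences of 1.33 and 1.38, above these shifts of all genes. The kept direction was thus favoured by the choice, and nothing is read from it. Of the members, 147 still had no overlap, a count that was not taken over all genes on that scale. Only 104 members still met the whole rule. Of the 96 lost, 63 exceeded the limit on age in surface fish and 53 overlapped.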

How the data were processed

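Livers of Tinaja and surface larvae were profiled at 5 and 7 dpf, with 3 libraries a group. According to the submitters' notes, reads of 75 bp were aligned with STAR 2.7.3a to astMex_2.0, a surface fish genome, annotated by Ensembl 102, and RSEM 1.3.0 is listed as well. The authors deposited raw whole-number read counts per gene. The study names a stranded mRNA library kit, but the strand setting of the counts was not given in these sources. If the counts ignored strand, reads where genes on opposite strands overlap would be set aside with the reads of several genes. Paralogues may lose reads at several places. The 4 summary rows (unaligned, several places, no gene, several genes) stayed out of library sizes and tests.

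The counts were tested with edgeR 4.0.16 in R 4.3.3 (quasi-likelihood, TMM factors, filterByExpr on the 4 groups, robust dispersions). The model had a mean for each group over 12 libraries and 8 residual degrees of freedom, with Benjamini-Hochberg adjustment over 17540 genes and a threshold of 0.1. Gene reads of 10.6 to 23.6 M per library limit the precision of genes with few reads. Replicates differed beyond counting noise, and no library was a copy.

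The members and lists were chosen with earlier results of these data known. Genes were named by this rule: without names, the first 2 by the smaller morph difference by identifier, and others by rank or class. Alternatives were DESeq2 1.42.0, limma-voom (limma 3.58.1), other scaling, filters and prior counts, a replicate block, a covariate and leaving out each library.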

Additional observations from a re-analysis of the deposited data

How the results depend on the processing

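Leaving out libraries gave 133 to 190 members called higher in Tinaja at 5 dpf and 145 to 192 at 7 dpf. Other alternatives gave 136 to 195 and 160 to 196, against 190 and 192. Over all genes these ranges were 791 to 1958, 816 to 2763, 708 to 2016 and 1159 to 2283. The calls use the contrasts that chose the members. None of the results in these comparisons changed direction, which the choice favoured for the morph differences, so nothing is read from it. The members' median log2 CPM change with age in Tinaja, however, was -0.03 with library totals, against 0.09. With library totals, 144 genes met the rule, 104 members still met it and 104 were taken. The median log2 fold change of the members by edgeR was 2.75 at 5 dpf and 2.97 at 7 dpf, and was 2.31 at 5 dpf and 3.22 at 7 dpf with library totals, and 3.0 at 5 dpf when reads outside genes entered as a covariate. The 2 members called with age in surface fish became 21 with library totals, 0 without a filter on low counts and 0 with limma-voom. They became 1 with the covariate, 1 with a required 2-fold change, and 0 to 4 when 1 library was left out. Over all genes, 4989 calls became 8128 with library totals, 4299 without the filter, 4780 with limma-voom and 1521 with the covariate. They became 3062 without surface 5 dpf replicate 1 (0 members) and 3396 without surface 7 dpf replicate 2 (4 members). The covariate called 1 member with age in Tinaja, where 1651 of all genes were called, against 1223 without it. The cause of these moves was not tested. Other priors gave 230 and 285 genes meeting the rule (prior 0.5 and 5), and no filter gave 328.

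The replicate numbers were not taken to pair the samples, since not every same-numbered pair deviated together. Across genes, the deviations correlated at -0.23 to -0.14 between Tinaja and surface fish at 5 dpf, at -0.19 to 0.01 between them at 7 dpf, at 0.04 to 0.41 between the ages in Tinaja and at -0.13 to 0.24 between the ages in surface fish. With the replicate block, 173 and 183 members were called higher in Tinaja and 1 with age in surface fish. Over all genes these counts were 1208, 1394 and 4261.

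Without surface 7 dpf replicate 3, the log2 fold change of ENSAMXG00000042792 at 7 dpf was 8.43, against 7.24. For the member ranked 13, an alternative added after seeing the data, it was 6.63 without surface 7 dpf replicate 2 and 5.37 with limma-voom, against 3.46. For ENSAMXG00000032086, whose surface groups hold no read, fitted values depend on the prior count and were 9.58 and 10.23 with limma-voom and 12.6 at 5 dpf with the covariate, against 11.7 and 12.4. At most 3 surface reads stand behind each surface level of the first class.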
